A study of Mus musculus with 4 samples.

Results

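The genes described here encode the ligands, receptor components, effector and secreted antagonists of Nodal and activin signalling in mouse embryonic stem (ES) cells. They are the 10 genes Nodal, Gdf3, Inhba, Inhbb, Tdgf1, Acvr2b, Smad2, Lefty1, Lefty2 and Fst, each chosen by its symbol among the 27542 genes and transcribed loci of the authors' deposited table. All 10 were found, each in 1 entry, and all 10 were tested by the authors. Transcriptomes of TBV2 cells, a mouse ES cell line, were profiled by RNA sequencing of total RNA. The 3 KD libraries came from separate clones in which the long noncoding RNA T-UCstem1 was knocked down, and the 1 NT library came from the control labelled N.T. Both groups were cultured with serum and LIF, and the design text also names feeder cells and a high cell density. Each KD line is a clone, so features of a clone and of the knockdown cannot be told apart within a clone.

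Nodal and the activins are ligands of the TGF-beta family. They bring together type II and type I serine/threonine kinase receptors, and the type I receptor phosphorylates SMAD2 and SMAD3, which enter the nucleus with SMAD4 and bind DNA with partners such as FOXH1. Nodal needs the membrane-anchored co-receptor Cripto, encoded by Tdgf1, whereas activins do not. Activin A is a dimer of the subunit encoded by Inhba and activin B a dimer of the subunit encoded by Inhbb. The Lefty proteins block Nodal and are themselves switched on by the pathway, while follistatin, encoded by Fst, binds activins outside the cell. In ES cells the pathway is active through ligands that the cells make themselves, and in the embryo it patterns the epiblast and induces mesendoderm.

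Nodal and its co-receptor gene Tdgf1 stood at nearly the same level in both groups, and the gene that was called belongs to the activin arm. Inhba rose in KD cells, to 4.69 FPKM against 0.809 FPKM in NT cells, and was the 1 member of 10 that was called in the authors' deposited table. Inhbb, the far more abundant activin subunit gene, was at 56.9 FPKM in KD cells against 77.6 FPKM in NT cells and was not called. Fst was at 4.72 FPKM in KD cells against 1.62 FPKM in NT cells, and Smad2 at 30.7 FPKM in KD cells against 18.0 FPKM in NT cells, neither of them called. FPKM counts fragments per kilobase of transcript and corrects for library size. The deposited table holds 1 value per gene for the KD clones together and 1 for the NT library, so no value below carries an SD, and no difference could be set against the spread between clones or between control cultures.

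Of all 15477 tested entries, the authors' mark (a Cuffdiff q of at most 0.0478 among those marked) fell on 1.15%, of which 149 entries, 0.963% of those tested, were higher in KD cells and 29, or 0.187%, were lower. Among the members 1 of 10 was called higher and 0 of 10 lower. At an unadjusted Cuffdiff p under 0.05, the authors' deposited table held 3 members higher in KD cells (Inhba, Fst and Smad2) and 1 lower (Inhbb), beside 8.88% of all tested entries in either direction, 6.1% higher and 2.78% lower. The log2 fold was computed as log2((KD FPKM + 1)/(NT FPKM + 1)). It is positive where KD cells were higher and understates changes of weakly expressed genes. The members' median log2 fold was 0.038, or 0.058 without chromosomes 6, 10 and Y, and 6 members lay above 0 and 4 below. The 13455 tested entries with at least 1 FPKM in either group had a median of 0.0099 and quartiles of -0.19 and 0.22. Of the members, 4 lay within those quartiles, namely Nodal, Gdf3, Tdgf1 and Lefty2.

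**Figure D1:**
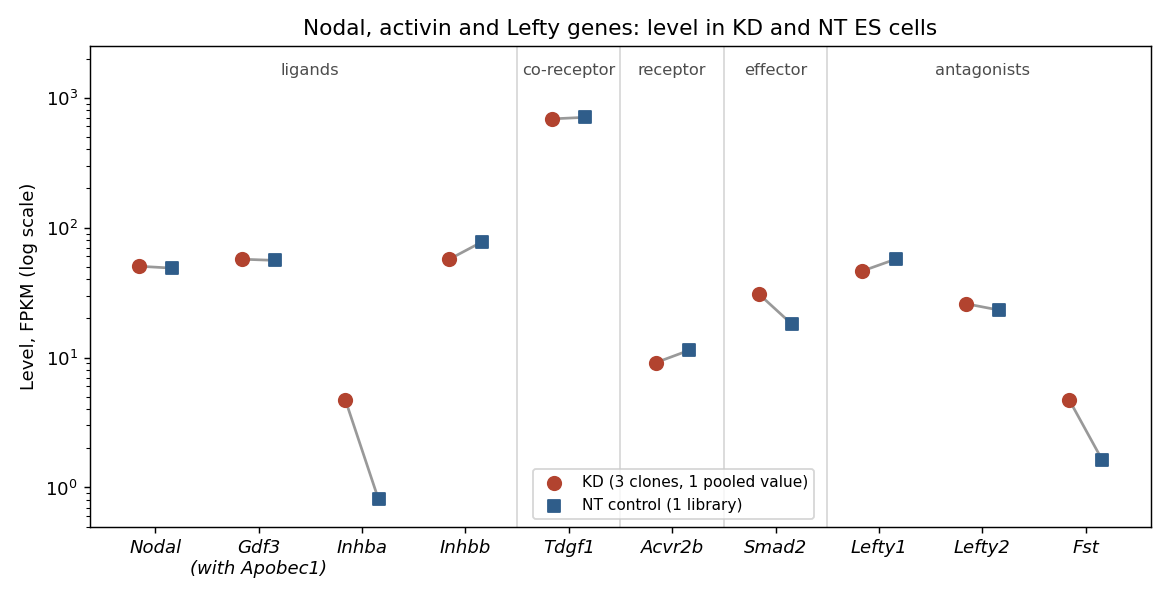
Level of each gene in FPKM on a log axis, with the KD value (circle, 3 clones pooled by the authors) left of the NT value (square, 1 library); genes are ordered by role and have no error bars because each group has 1 value. Inhba is at 4.69 FPKM in KD and 0.809 FPKM in NT, and Tdgf1, at 686 and 706 FPKM, is the most abundant of the 10.

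Nodal, the ligand that gives the pathway its name (chromosome 10, 60880720 to 60888085 in mm9), was at 50.4 FPKM in KD cells against 48.8 FPKM in NT cells. The ratio was 1.03 and the log2 fold 0.047, with p = 0.851 and q = 0.999 in the authors' deposited table. Of tested entries with at least 1 FPKM, 87.1% lay at least as far from 0. Chromosome medians here are over tested entries with at least 1 FPKM in either group, the member included. For chromosome 10 the median log2 fold was -0.19 over 655 entries, and Nodal stood 0.24 above that median.

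Gdf3 encodes a Nodal-related ligand that also uses Cripto and that can inhibit bone morphogenetic proteins. Its entry in the deposited table is shared with Apobec1, a cytidine deaminase gene (chromosome 6, 122527810 to 122560147 in mm9), so the level cannot be given to Gdf3 alone. The shared entry was at 57.1 FPKM in KD cells against 55.9 FPKM in NT cells, with a log2 fold of 0.029. Entries of chromosome 6 were mostly higher in KD cells, with a median of 0.26 over 603 entries, and the Gdf3 entry stood 0.23 below that median. Tdgf1, the Cripto co-receptor (chromosome 9, 110842112 to 110848662), was at 686 FPKM in KD cells against 706 FPKM in NT cells, a log2 fold of -0.040. In both groups it lay in level above 99.1% of tested entries with at least 1 FPKM in either group. The level of Tdgf1 was 13.6 times that of Nodal in KD cells and 14.5 times in NT cells.

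Inhba, which encodes the subunit of activin A (chromosome 13, 16106217 to 16123438 in mm9), had a KD to NT ratio of 5.80. Its log2 fold was 1.65, with p = 0.00025 and q = 0.0276 in the authors' deposited table, and 1.30% of tested entries with at least 1 FPKM lay at least as far from 0. In level it stood above 32.4% of those entries in KD cells and above 4.37% in NT cells, so that it was a weakly expressed gene in both. If 1 fragment in the NT library is worth 0.033 FPKM times kilobases, the most frequent low value, the NT level of Inhba rests on about 37.5 to 157 fragments, for annotated transcripts of 1529 to 6390 bp. The median of the 558 entries of chromosome 13 was -0.035, and no other entry lay within 60 kb of Inhba.

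Inhbb, which encodes the subunit of activin B and of inhibin B (chromosome 1, 121312042 to 121318825 in mm9), lay in the opposite direction. Its ratio was 0.733 and its log2 fold -0.44, with p = 0.0494 and q = 0.560 in the authors' deposited table.  Of tested entries with at least 1 FPKM, 20.6% lay at least as far from 0 as Inhbb. The level of Inhbb was 12.1 times that of Inhba in KD cells and 95.9 times in NT cells. Inhba made up 7.63% of the summed level of both subunit genes in KD cells and 1.03% in NT cells, while the sum itself was 61.6 FPKM in KD cells against 78.4 FPKM in NT cells. Most activin subunit RNA was therefore Inhbb in both groups.

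The promoters of the subunit genes are shown because their levels differed in opposite directions. RefSeq sequences of the GRCm38.p6 build, each from 250 bases before to 50 after the gene's start, were matched for 5 of the 10 members, Nodal, Tdgf1, Acvr2b, Inhba and Inhbb. The Inhba window is chr13:16011601-16011900 on the plus strand, and the Inhbb window is chr1:119422199-119422498 on the minus strand, both written 5′ to 3′ along the gene. Capitals mark TATAAA, the TATA box letters, in Inhba, and GGGCGG, the GC box, read on the other strand as CCGCCC, in Inhbb.
Inhba: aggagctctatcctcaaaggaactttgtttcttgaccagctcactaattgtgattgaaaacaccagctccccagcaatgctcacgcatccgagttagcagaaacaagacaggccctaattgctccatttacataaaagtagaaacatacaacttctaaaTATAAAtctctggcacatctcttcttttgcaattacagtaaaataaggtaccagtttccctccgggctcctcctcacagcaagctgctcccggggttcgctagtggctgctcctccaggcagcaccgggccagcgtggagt
Inhbb: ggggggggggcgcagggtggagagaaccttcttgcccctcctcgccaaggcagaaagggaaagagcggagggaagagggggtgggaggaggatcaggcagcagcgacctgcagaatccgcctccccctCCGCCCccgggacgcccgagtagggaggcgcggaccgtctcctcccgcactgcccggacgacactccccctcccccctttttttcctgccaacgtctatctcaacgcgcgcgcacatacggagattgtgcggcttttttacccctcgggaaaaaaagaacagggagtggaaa

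The Inhba window holds TATAAA once, 91 bases before the start, no GGGCGG and 7 CG dinucleotides, with 47.7% G and C. The Inhbb window holds GGGCGG once, no TATAAA and 23 CG dinucleotides, with 64.3% G and C. On either strand TATAAA was found in 13.6% and GGGCGG in 35.7% of the 32851 promoters of the table, whose median was 7 CG dinucleotides. TGTGNATT, a FOXH1 motif found in 3.60% of promoters, and GTCTAGAC, a SMAD motif found in 0.213%, were in none of the 5 member windows. TGANTCA, the AP-1 motif found in 7.81%, was in none of the 5 either. These matches describe letters in a window. For Inhba the deposited span of 17222 bp is shorter than the 19759 bp between this RefSeq start and the gene's end, so the authors' annotation may have used another start. For Inhbb the lengths were 6784 and 6786 bp.

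Fst, which encodes the activin-binding protein follistatin (chromosome 13, 115242470 to 115249178 in mm9), was at a KD to NT ratio of 2.91. Its log2 fold was 1.13, with p = 0.0083 and q = 0.232 in the authors' deposited table, so it was not called. It stood above 32.6% of tested entries with at least 1 FPKM in either group in level in KD cells, and above 14.7% in NT cells. Per unit of both subunit genes together, Fst was at 0.0767 in KD cells and 0.0207 in NT cells, as a ratio of FPKM. The subunit genes thus outnumbered Fst 13.0 to 1 in KD cells and 48.3 to 1 in NT cells. The NT level of Fst would rest on about 33.1 to 144 fragments by the same reckoning. Like Inhba, Fst had no other entry within 60 kb.

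**Figure D2:**
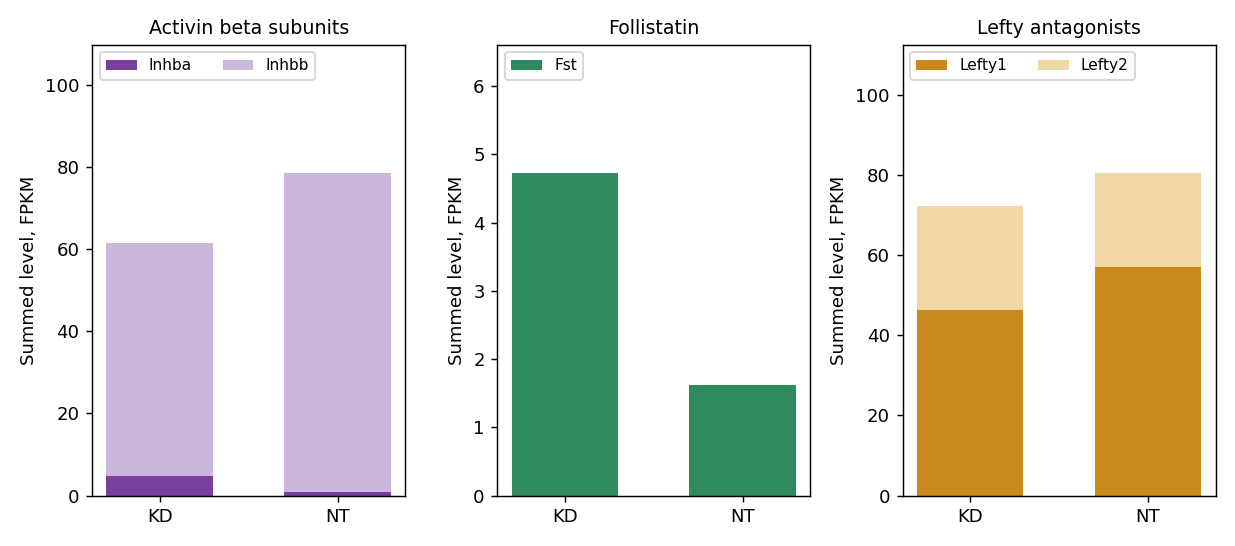
Summed levels in FPKM of the activin subunit genes Inhba and Inhbb, of Fst and of the antagonist genes Lefty1 and Lefty2, with KD (3 clones pooled) left of NT (1 library) in each panel; the panels have different axes, each from 0. Inhba is 7.63% of the subunit sum in KD and 1.03% in NT, and the Lefty sum is 72.3 FPKM in KD and 80.3 FPKM in NT.

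Lefty1 and Lefty2, the secreted Nodal antagonists, lie 35.9 kb apart on chromosome 1. Lefty1 (182865170 to 182868532 in mm9) was at 46.4 FPKM in KD cells against 57.1 FPKM in NT cells, a log2 fold of -0.30 with q = 0.992 in the authors' deposited table. Lefty2 (182823250 to 182829233) was at 25.9 FPKM in KD cells against 23.2 FPKM in NT cells, a log2 fold of 0.16 with q = 0.999 in the authors' deposited table. The paralogs thus lay on opposite sides of 0, and neither was called. Their summed level was 72.3 FPKM in KD cells against 80.3 FPKM in NT cells, and Lefty1 gave 64.1% of it in KD cells and 71.1% in NT cells. The sum was 1.43 times the level of Nodal in KD cells and 1.65 times in NT cells.

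The split between the Lefty genes depends on how reads were assigned, because their coding sequences are close. Both are 1104 bases long in the GENCODE M21 transcripts, without a gap in their alignment, and 1014 bases, or 91.8%, were identical. Of the 1055 stretches of 50 bases in the Lefty2 coding sequence, 281, or 26.6%, occur unchanged in Lefty1. A read inside such a stretch fits either gene.
The 80 bases that differ most lie at coding positions 46 to 125, counted from the first base of the start codon, within 1 exon on the plus strand of GRCm38, at chr1:180935155-180935234 in Lefty1 and chr1:180893229-180893308 in Lefty2. Capitals mark the 25 positions at which they differ.
Lefty1: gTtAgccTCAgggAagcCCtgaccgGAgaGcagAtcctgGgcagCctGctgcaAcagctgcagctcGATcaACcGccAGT
Lefty2: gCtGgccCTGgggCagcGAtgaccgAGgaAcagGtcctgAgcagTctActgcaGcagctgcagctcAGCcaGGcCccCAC
The deposited values do not say how reads of the shared stretches were handled. If they were divided between the genes, the sum is less affected than each level alone. If they were dropped or counted for both genes, the sum is affected too. The stretch length of 50 bases was assumed, and only coding sequence was compared.

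Acvr2b, a type II receptor for activins and Nodal (chromosome 9, 119311281 to 119351212 in mm9), was at 9.12 FPKM in KD cells against 11.3 FPKM in NT cells. Its log2 fold was -0.29, with q = 0.964 in the authors' deposited table. Acvr2a, the other activin type II receptor, was at 5.96 FPKM in KD cells against 5.15 FPKM in NT cells and was not called. The level of Acvr2b was 1.53 times that of Acvr2a in KD cells and 2.20 times in NT cells. The type II receptors together were at 15.1 FPKM in KD cells against 16.5 FPKM in NT cells.

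Smad2, the effector that the activated receptors phosphorylate, was at 30.7 FPKM in KD cells against 18.0 FPKM in NT cells. Its log2 fold was 0.74, with p = 0.0288 and q = 0.440 in the authors' deposited table, and 8.05% of tested entries with at least 1 FPKM lay at least as far from 0. Smad4, the shared partner of the receptor SMADs, was at 28.6 FPKM in KD cells against 26.1 FPKM in NT cells. Smad2 was therefore at 1.08 times the level of Smad4 in KD cells and at 0.690 times in NT cells. Smad3, the second receptor SMAD of the pathway, was at 4.76 FPKM in KD cells against 3.57 FPKM in NT cells, and Smad2 was 6.46 times as high in KD cells and 5.04 times in NT cells. Neither of these SMAD genes was called.

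**Figure D3:**
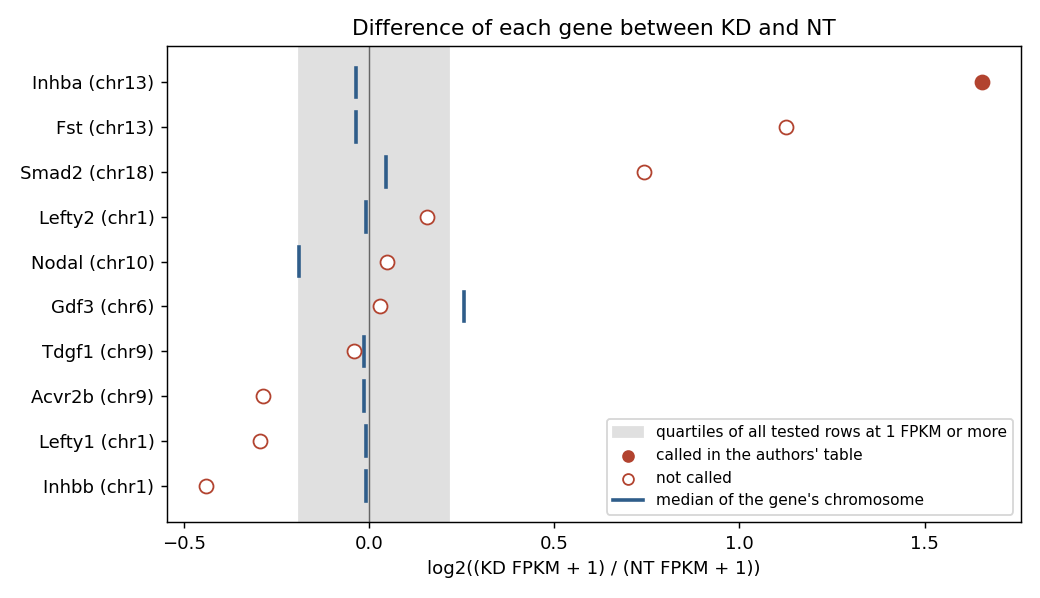
Log2 fold of each gene, with positive values higher in KD; filled points were called in the authors' deposited table, bars mark the median of the gene's chromosome and the grey band spans the quartiles of all tested entries with at least 1 FPKM (-0.19 to 0.22). Inhba lies at 1.65, Fst at 1.13 and Smad2 at 0.74, whereas Inhbb lies lowest at -0.44.

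In order of level, the members ran from Tdgf1 through Gdf3, Inhbb, Nodal, Lefty1, Smad2, Lefty2, Acvr2b and Fst to Inhba in KD cells. In NT cells the order was Tdgf1, Inhbb, Lefty1, Gdf3, Nodal, Lefty2, Smad2, Acvr2b, Fst and Inhba. Tdgf1 stood far above the other genes, and Acvr2b, Fst and Inhba were the lowest in both groups. Gdf3 is placed by the entry it shares with Apobec1, so its own place is not known. In KD cells that entry and Inhbb were within 0.246 FPKM of each other, and Fst and Inhba within 0.0266 FPKM. In NT cells the smallest absolute gap was 0.814 FPKM, between Fst at 1.62 FPKM and Inhba at 0.809 FPKM. The next was 1.19 FPKM, between Lefty1 at 57.1 FPKM and the entry of Gdf3 and Apobec1 at 55.9 FPKM. Relative to level, the gap between Lefty1 and that entry was by far the smaller. With 1 value per group, the spread that would separate neighbours in either order was not measured.

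Other genes of the pathway were mostly at similar levels in both groups. Of 53 further genes, 52 had a usable value, since the estimate for Usp9x had failed, and 40 were tested. Among these, 1 was called higher (Sox17), 0 were called lower, and 39 were not called, beside 1.15% of all tested entries. At an unadjusted Cuffdiff p under 0.05, 5 of the 40 were higher in KD cells (among them Sox17, Foxa2, Tgfb3 and Tgfbr2) and 1 was lower (Pcsk6). The 37 genes with at least 1 FPKM in either group had a median log2 fold of 0.077, with 25 above 0 and 12 below. The median was 0.13 with a pseudocount of 0.1 and 0.050 with a minimum of 5 FPKM.

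Among 10 tested genes of ligands and convertases, 0 were called by Cuffdiff, and at an unadjusted p under 0.05 1 was higher and 1 lower. Pcsk6, a convertase that cleaves Nodal precursors, was at 18.7 FPKM in KD cells against 27.4 FPKM in NT cells, with p = 0.0315 and q = 0.453 in the authors' deposited table. Tgfb3, a TGF-beta ligand gene, was at 0.694 FPKM in KD cells against 0.171 FPKM in NT cells, with q = 0.385 in the authors' deposited table. Furin, another convertase, was at 6.28 FPKM in KD cells against 6.35 FPKM in NT cells. Inhbe, a further subunit gene of the activin family, was at 3.43 FPKM in KD cells against 3.32 FPKM in NT cells. Inha, whose product pairs with an activin subunit to form inhibin, was at 0.763 FPKM in KD cells against 2.60 FPKM in NT cells and was not called, with p = 0.353 in the authors' deposited table.

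Among 5 tested receptor genes, 0 were called by Cuffdiff and 1 had an unadjusted p under 0.05. That 1 was Tgfbr2, the type II receptor for TGF-beta, at 1.90 FPKM in KD cells against 0.806 FPKM in NT cells. Acvr1b, the type I receptor ALK4 for activins and Nodal, was at 24.8 FPKM in KD cells against 27.8 FPKM in NT cells. Tgfbr1, the type I receptor for TGF-beta, was at 13.1 FPKM in KD cells against 12.9 FPKM in NT cells. Acvr1c, the Nodal type I receptor ALK7, was at 0.00187 FPKM in KD cells and listed at 0 in NT cells. Cfc1, the Cripto-related co-receptor gene, was at 0.315 FPKM in KD cells against 0.298 FPKM in NT cells, so Tdgf1 was by far the more abundant gene of the pair. Both Acvr1c and Cfc1 were not tested by the authors.

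The inhibitor list had 14 tested genes, of which 0 were called by Cuffdiff and 0 had an unadjusted p under 0.05. Its log2 folds ran from -0.30 to 0.43. Tgif1, a homeodomain corepressor of SMAD2, was at 144 FPKM in KD cells against 122 FPKM in NT cells. Drap1, a corepressor that limits Nodal signalling in the mouse embryo, was at 44.6 FPKM in KD cells against 32.9 FPKM in NT cells. Ppm1a, a phosphatase of SMADs, was at 44.1 FPKM in KD cells against 41.9 FPKM in NT cells. Smad7 and Skil, feedback inhibitors induced by the pathway, were at 22.4 and 23.6 FPKM in KD cells against 21.6 and 29.2 FPKM in NT cells. Cer1, a secreted Nodal antagonist of the anterior visceral endoderm, was at 0.0206 FPKM in KD cells and listed at 0 in NT cells, and was not tested.

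Of the 5 tested effectors, 0 were called by Cuffdiff and 0 had an unadjusted p under 0.05. Foxh1, the forkhead partner of SMAD2, was at 28.1 FPKM in KD cells against 27.1 FPKM in NT cells. Trim33, a SMAD-binding chromatin factor, was at 17.6 FPKM in KD cells against 17.9 FPKM in NT cells.

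The target gene list, factors that Nodal induces in the embryo, had the highest median of the pathway lists, 0.75 over 6 genes with at least 1 FPKM. Of 6 tested targets 1 was called higher, the endoderm factor Sox17, which rose in KD cells to 4.89 FPKM against 0.551 FPKM in NT cells, with q = 0.0320 in the authors' deposited table. Foxa2, a further endoderm factor, was at 2.63 FPKM in KD cells against 0.140 FPKM in NT cells, with q = 0.163 in the authors' deposited table. Otx2 was at 18.4 FPKM in KD cells against 21.3 FPKM in NT cells, and Hhex at 3.09 FPKM in KD cells against 2.56 FPKM in NT cells. The mesendoderm genes Eomes, Mixl1, Gsc and T were all low, with Eomes the highest at 1.05 FPKM in KD cells against 1.02 FPKM in NT cells. Mixl1, Gsc and T were not tested by the authors. Sox17 and Foxa2 are also markers of extraembryonic endoderm.

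**Figure D4:**
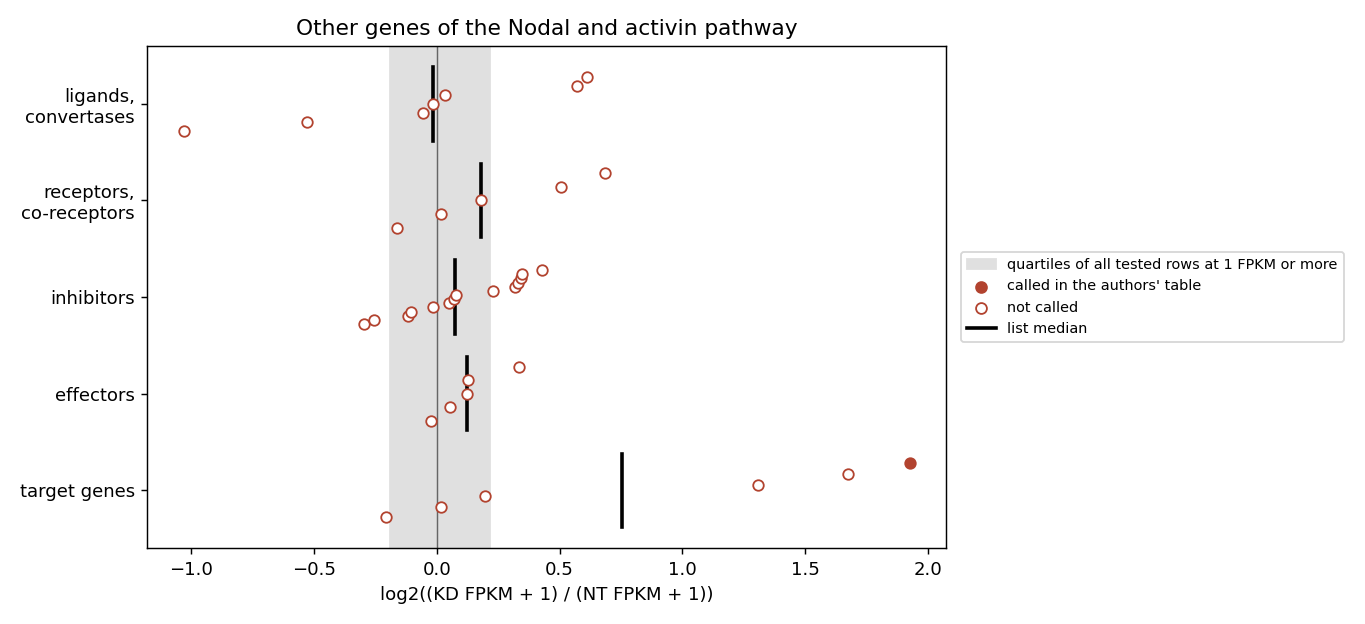
Log2 fold of other pathway genes with at least 1 FPKM in either group, grouped by role; points are genes, filled where called in the authors' deposited table, black bars are list medians and the grey band spans the quartiles of all tested entries. Sox17, in the target list, is the called gene, at a log2 fold of 1.92.

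Markers of other cell types are given beside Inhba, which was called, and Fst, which was not. In bulk RNA, fewer or more cells of a type cannot be told apart from less or more RNA per cell. Of all tested entries, 0.963% were called higher in KD cells and 0.187% lower. Of 16 tested markers of extraembryonic endoderm, the lineage that lines the yolk sac, 13 were called higher in KD cells and 0 lower. At an unadjusted Cuffdiff p under 0.05, 15 were higher and 0 lower. The median log2 fold was 2.27, with 15 above 0 and 1 below. The 1 below was Hnf4a, at 1.27 FPKM in KD cells against 1.65 FPKM in NT cells. The summed level of all 19 was 736 FPKM in KD cells against 130 FPKM in NT cells. Col4a1, a basement membrane collagen gene, was at 109 FPKM in KD cells against 10.9 FPKM in NT cells, and Sparc, a matrix protein gene, at 249 FPKM in KD cells against 64.2 FPKM in NT cells. The yolk sac genes Ttr and Afp were at 0.532 and 0.0522 FPKM in KD cells and listed at 0 in NT cells. Apoa1, of the same marker list, was at 0.287 FPKM in KD cells against 0.0748 FPKM in NT cells. Ttr, Afp and Apoa1 were below 1 FPKM in both groups and were not tested by the authors. Of 9 tested fibroblast markers 2 were called higher and 0 lower, with a median log2 fold of 0.88 over the 8 with at least 1 FPKM. That median was 0.37 without the FPKM minimum and 1.43 with a pseudocount of 0.1. The summed level of all 14 was 97.0 FPKM in KD cells against 25.8 FPKM in NT cells. S100a4 gave most of that sum, at 68.6 FPKM in KD cells against 8.70 FPKM in NT cells. The other called gene was the collagen gene Col6a3, at 1.46 FPKM in KD cells against 0.169 FPKM in NT cells, with q = 0.0410 in the authors' deposited table. Lum was listed at 0 in both groups, and Thy1, a surface protein of fibroblasts, was at 7.06 FPKM in KD cells against 5.08 FPKM in NT cells. Inhba and Fst are expressed by many cell types, and the part of these cells in their levels was not tested.

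ES cell markers were high in both groups, as the cell type label has it. Of 10 tested ES cell markers 0 were called by Cuffdiff and 0 had an unadjusted p under 0.05, with a median log2 fold of 0.094. Pou5f1, which encodes OCT4, was at 1078 FPKM in KD cells against 1036 FPKM in NT cells, and the entry of Dppa5a, shared with Ooep, at 2721 FPKM in KD cells against 2552 FPKM in NT cells. Of 5 tested neural markers 1 was called higher, the intermediate filament gene Nes, at 7.17 FPKM in KD cells against 0.991 FPKM in NT cells. Tubb3, a neuronal tubulin gene, was at 47.3 FPKM in KD cells against 36.2 FPKM in NT cells. Sox1 lay in the other direction, at 2.03 FPKM in KD cells against 3.58 FPKM in NT cells, and was not called. The 4 neural markers with at least 1 FPKM had a median log2 fold of 0.40, with 3 above 0 and 1 below. Of 3 tested trophoblast markers 0 were called by Cuffdiff and 0 had an unadjusted p under 0.05, with a median log2 fold of 0.019. Among them Krt7 was at 1.59 FPKM in KD cells against 0.778 FPKM in NT cells, and Ascl2 at 1.76 FPKM in KD cells against 2.93 FPKM in NT cells.

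**Figure D5:**
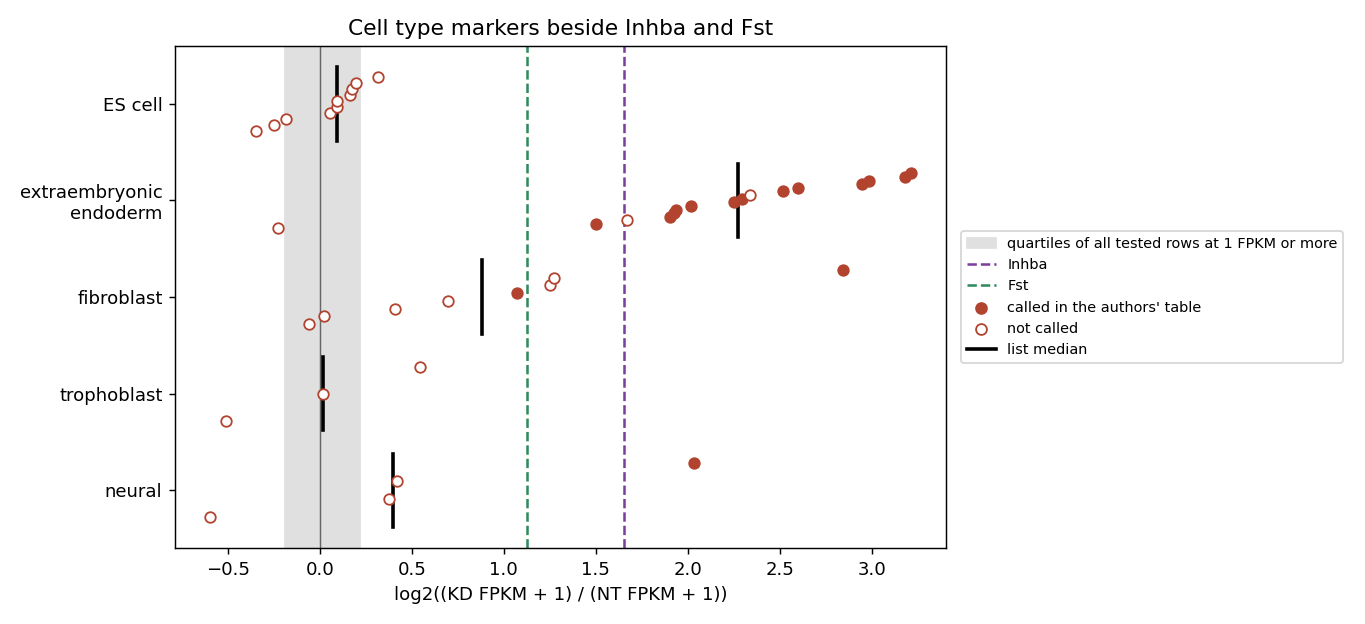
Log2 fold of cell type markers with at least 1 FPKM in either group; points are genes, filled where called in the authors' deposited table, black bars are list medians, the grey band spans the quartiles of all tested entries and dashed lines mark Inhba (1.65) and Fst (1.13). The extraembryonic endoderm markers have a median of 2.27 and the ES cell markers of 0.094.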

How the data were processed

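RNA of 4 libraries, 3 KD clones and 1 NT control, was processed with TopHat, Cufflinks and Cuffdiff on mm9, per the submitters' processing notes. Versions, annotation, strand use and scaling are each not given in the sources used here. Per gene, the deposited table holds, per the file headers, 1 FPKM for a condition named treated, taken as the pooled KD clones because the labels name no other treatment, and 1 for control, taken as NT. The deposited p-values and q-values are Cuffdiff's, per the file headers. Benjamini-Hochberg adjustment of the 15477 tested p-values gave the same q to within 5.2e-07, and no new test was run. With 1 control library they hold no measured spread between control cultures.

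Members and gene lists were chosen with earlier results of these data known. For each symbol the entry with the highest mean FPKM was kept, out of those tested or not tested for low signal. Log2 folds were computed with a pseudocount of 1, and list medians over genes with at least 1 FPKM in either group, except for the members. Positions are 1-based mm9 for genes and GRCm38 for sequences. The named pathway genes are every called gene, the 3 highest in mean FPKM of each list and the 2 largest changes, and the named markers the 2 highest of each list. Inha, Smad3, Smad7, Skil, Acvr1c, Cfc1, Cer1, Eomes, Mixl1, Gsc, T, Ttr, Afp, Lum, Col6a3, Tgfb3, Tgfbr2 and Sox1 were named after their values were seen. Some results that the counts include are not reported here by name.

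Reads per library are not stated. The worth of 1 NT fragment was the most frequent FPKM times length over 336 low genes with 1 GENCODE M21 transcript of at least 1500 bp. It would correspond to about 3.03e+07 fragments in that library. Only 26 of the 336 genes lay in the most frequent bin, 0.002 wide, so this worth is a rough estimate. The fragment reckoning covers counting error only, and no depth per clone follows for the KD. Python 3.11.15, pandas 2.3.3 and Biopython 1.88 were used. The adjustment and fold code was tested on simulated data.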

Additional observations from a re-analysis of the deposited data

How the results depend on the processing

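Pseudocounts of 0.1 and 5, centring on the median of tested entries and summing all entries of a symbol gave 40 recomputed member folds, and all 40 kept their direction. That outcome was fixed by the arithmetic, so it is no check of the directions. A pseudocount cannot change the sign of a fold, and each member has 1 entry, so summing changed nothing. Centring moved each fold by 0.0099, less than the member fold closest to 0, which was 0.029 for the Gdf3 entry. The log2 fold of Inhba ran from 0.74 with a pseudocount of 5 to 2.40 with 0.1. With q recomputed over tested entries of at least 1 FPKM, 192 entries passed and Inhba was still the 1 member called, with q = 0.0246. At an unadjusted p under 0.05, 4 members and 6 other pathway genes passed in place of 1 each. The members' median was 0.028 when centred and 0.058 without chromosomes 6, 10 and Y. The median of other pathway genes was 0.13 with a pseudocount of 0.1, 0.064 with 5, 0.052 without an FPKM minimum and 0.050 with a minimum of 5 FPKM. Without an FPKM minimum the marker medians were 2.02 for extraembryonic endoderm, 0.37 for fibroblast and 0.21 for trophoblast genes, and with a pseudocount of 0.1 they were 2.94, 1.43 and 0.034, and 0.53 for neural genes. Each shift comes from the changed setting itself. A pseudocount sets how far folds of weakly expressed genes shrink, and an FPKM minimum sets which genes enter a median. No paired analysis was possible because each group has 1 deposited value, and for the same reason no clone could be left out. At the assumed worth of 1 NT fragment, the NT values rest on as few as 33.1 fragments for Fst and 37.5 for Inhba, and the depth of the KD libraries is not known.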

Other observations

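Within 60 kb of the members lay 32 entries other than members, of which 21 were tested, 0 were called by Cuffdiff and 1 had an unadjusted p under 0.05. That 1 is a transcribed locus with no symbol, chosen after its values were seen, 17.7 kb from Inhbb on the side of the Inhbb start (chromosome 1, 121336562 to 121342655 in mm9). It was at 0.548 FPKM in KD cells against 1.69 FPKM in NT cells, with p = 0.0441 and q = 0.533 in the authors' deposited table. A second entry with the same coordinates was at 2.58 FPKM in KD cells against 4.11 FPKM in NT cells, and another locus, 12.5 kb from Inhbb, was at 0.168 FPKM in KD cells and 0.553 FPKM in NT cells, without a test. Inhbb itself lay in the same direction. Ralb, the next gene with a symbol on that side, was at 19.6 FPKM in KD cells against 20.7 FPKM in NT cells.

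Over all loci with no symbol and a level above 0, 67.1% of 3829 were lower in KD cells, and near the members 8 of 12 were.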
